A study of Mus musculus with 28 samples.

Results

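The difference between 2 small interfering RNAs (siRNAs), one against the HA tag and one against the FLAG tag, was measured in 6 matched pairs of RNA-seq libraries, 12 of the 28 libraries of the series. In each pair, HA siRNA and FLAG siRNA had been given to the same clone or line, so the pair was kept as a block and each difference below is HA minus FLAG. The cells were mouse embryonic fibroblasts of a C57BL/6x129Sv background, transformed with RAS and DNP53, and were harvested the morning after overnight transfection with RNAiMAX. Pairs 1 and 2 were clones 12 and 14, which carry tagged cyclin D1 ("Ctag-Cyclin D1"). Pairs 3 and 4 were clones 25 and 18, in which cyclin D1 has no tag. Pairs 5 and 6 were derived from clone 18 by adding mCherry with PURO or FLAG-mCherry-HA with PURO, and are the libraries marked REP2. Pairs 4, 5 and 6 therefore share 1 parental clone, and each clone or line has 1 library per siRNA in the pairs. Beside the pairs stand 2 further HA libraries of the mCherry lines (REP1) and the 4 libraries of clones 12, 14, 25 and 18 that received the SCR siRNA, the control siRNA of the study. An n of 3 or 4 stands in the titles without explanation, and nothing states that the libraries of 1 pair came from separate cultures, so p-values measure the spread between these libraries.

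An siRNA is loaded into an Argonaute protein, which uses 1 strand of it to find messenger RNAs. Near-perfect pairing leads to cleavage of the transcript, and short pairing, often in the 3′ untranslated region (3′UTR), can lower other transcripts. FLAG is a short peptide tag with a run of aspartates, which are encoded by GAT and GAC codons, and HA is a short peptide tag taken from influenza haemagglutinin. No source used here gives the sequences of the 3 siRNAs, so no letter of any siRNA was compared with a transcript.

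The 12 libraries held 26558256 to 69442170 counts. Levels are given as CPM, counts scaled to a common library size, and a gene was called at an adjusted p under 0.05 in edgeR's quasi-likelihood test with Benjamini-Hochberg adjustment over all genes tested. Of 13050 genes tested, 1492 were called (11.4%), 632 of them higher with HA siRNA (4.84%) and 860 lower (6.59%). All 6 pairs moved the same way for 1359 of them (10.4% of genes tested). Most differences were small: 27 called genes were at least 2-fold higher with HA siRNA (0.207%) and 46 at least 2-fold lower (0.352%). The number of calls depended on the pairs used, with 870 calls without pair 1, 673 without pair 2, 2830 without pair 4, 928 without pair 5 and 832 without pair 6. Rn45s, the ribosomal RNA precursor, took 2.22% of counts in the HA library of clone 12 and 2.75% in that of mCherry, against 0.346% and 0.816% in their FLAG partners. Without those 2 pairs, 198 genes were called higher and 217 lower. Other sets of 4 pairs gave 138 and 158 (without tagged cyclin D1) and 164 and 155 (different clones). With all 6 pairs and the Rn45s row left out, 683 were called higher and 773 lower. The part of Rn45s itself in the calls was not tested.

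Ccnd1, the cyclin D1 gene, is the transcript that both siRNAs address in the tagged clones (GRCm38, chr7:144929931-144939831). Its level was 222 CPM with HA, 181 CPM with FLAG and 1128 CPM with SCR siRNA in clone 12. In clone 14 it was 219 CPM with HA, 131 CPM with FLAG and 1287 CPM with SCR siRNA. Both tagged clones thus stood far below their SCR libraries with either siRNA. In clone 25, Ccnd1 was at 1256 CPM with HA, 1226 CPM with FLAG and 1313 CPM with SCR siRNA, and in clone 18 at 1293, 1014 and 1329 CPM in the same order. In the mCherry line it was at 1181 CPM with HA and 1100 CPM with FLAG siRNA, and in the FLAG-mCherry-HA line at 1363 CPM with HA and 1078 CPM with FLAG siRNA. HA was above FLAG in 6 of 6 pairs, by a log2 fold change of 0.30 ± 0.09 (SE) with an adjusted p of 0.0594 in edgeR, which missed the threshold. The levels of the 2 groups overlapped. The mCherry transcripts were not analysed here.

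The largest differences were genes that were low with FLAG siRNA. The 12 genes with the largest HA minus FLAG log2 fold changes (1.27 to 2.2) covered transcription, chromatin, protein turnover, collagen modification and growth factor signalling, and were higher with HA siRNA in every pair. They were chosen as the 12 largest called changes among genes averaging 1 CPM or more that moved one way in all pairs, so their size is a description. In 10 of the 12, the 6 HA libraries did not overlap the 6 FLAG libraries, against 0.912% of all genes tested with HA above.

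Polr3g, which encodes a subunit of RNA polymerase III, stood first. Its lowest, median and highest levels were 33.3, 55.1 and 63.1 CPM with HA siRNA and 8.58, 10.8 and 15.7 CPM with FLAG siRNA, and the 4 SCR libraries lay between 65.9 and 78.7 CPM. Every FLAG library was below every HA library, with a log2 fold change of 2.2 ± 0.12 (SE; adjusted p = 4.52e-05, edgeR). Plod3, an enzyme that hydroxylates and glycosylates collagen lysines, had 80.6, 144 and 154 CPM with HA siRNA and 21.6, 34.6 and 50.03 CPM with FLAG siRNA as its lowest, median and highest levels. Its log2 fold change was 1.91 ± 0.08 (SE; adjusted p = 1.65e-05, edgeR), again with no overlap. Nrd1 encodes nardilysin, a metalloprotease. It ran at 147, 189 and 269 CPM with HA siRNA and at 50.9, 56.8 and 61.5 CPM with FLAG siRNA (log2 fold change 1.78 ± 0.14, SE; adjusted p = 0.000164, edgeR). The FLAG values of Nrd1 lay close together, with a mean of 56.7 ± 3.69 CPM (SD, n = 6).

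Several of the 12 act on transcription and chromatin. Leo1, a subunit of the PAF1 elongation complex, had a median of 45.1 CPM with HA and 13.6 CPM with FLAG siRNA. Taf9, a subunit of the general transcription factor TFIID, had a median of 113 CPM with HA and 35.4 CPM with FLAG siRNA. Set, a histone chaperone and inhibitor of the phosphatase PP2A, was the most abundant of the 12, with 1235, 1501 and 1908 CPM with HA siRNA and 469.9, 603 and 783 CPM with FLAG siRNA as its lowest, median and highest levels. The log2 fold changes were 1.60 ± 0.10 for Leo1, 1.56 ± 0.07 for Taf9 and 1.30 ± 0.11 for Set (SE), each called by edgeR with groups that did not overlap. Cand1, the exchange factor of cullin ubiquitin ligases, changed by 1.42 ± 0.09 and Cebpz, a CCAAT-binding factor, by 1.40 ± 0.13. Ift46, a part of the intraflagellar transport machinery of cilia, changed by 1.27 ± 0.15.

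The other members of the 12 were Atg10, Nudt9 and Fgf7. Atg10, an autophagy conjugating enzyme, had a low level, with 3.06, 4.80 and 5.81 CPM with HA siRNA and 0.869, 1.50 and 2.92 CPM with FLAG siRNA as its lowest, median and highest values. Nudt9, an ADP-ribose pyrophosphatase, had a median of 61.6 CPM with HA and 22.6 CPM with FLAG siRNA. Fgf7, a growth factor that acts on epithelial cells, had a median of 182 CPM with HA and 72.9 CPM with FLAG siRNA. Levels of Nudt9 and Fgf7 differed between clones and the groups overlapped, although HA exceeded FLAG in 6 of 6 pairs (log2 fold changes 1.40 ± 0.10 and 1.39 ± 0.10, SE). The 3 log2 fold changes, including 1.50 ± 0.15 for Atg10, were called by edgeR.

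At the other end, the 12 smallest log2 fold changes ran between -1.67 and -1.18, and these genes were lower with HA siRNA in every pair. Cd276, an immune checkpoint protein of the B7 family, had 5.66, 8.51 and 13.5 CPM with HA siRNA and 20.7, 23.7 and 47.2 CPM with FLAG siRNA as its lowest, median and highest levels. Atmin, a zinc finger protein that binds the ATM kinase, had 4.51, 5.45 and 7.62 CPM with HA siRNA and 14.1, 17.0 and 19.9 CPM with FLAG siRNA. Sfr1, a recombination repair factor, had 94.4, 116 and 136 CPM with HA siRNA and 186, 272 and 306 CPM with FLAG siRNA. These were the 3 of the 12 in which no HA library reached any FLAG library, against 0.529% of all genes tested with HA below. The log2 fold changes were -1.61 ± 0.12 for Cd276, -1.59 ± 0.10 for Atmin and -1.18 ± 0.07 for Sfr1 (SE; edgeR adjusted p = 0.000164, 8.55e-05 and 7.79e-05).

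**Figure D1:**
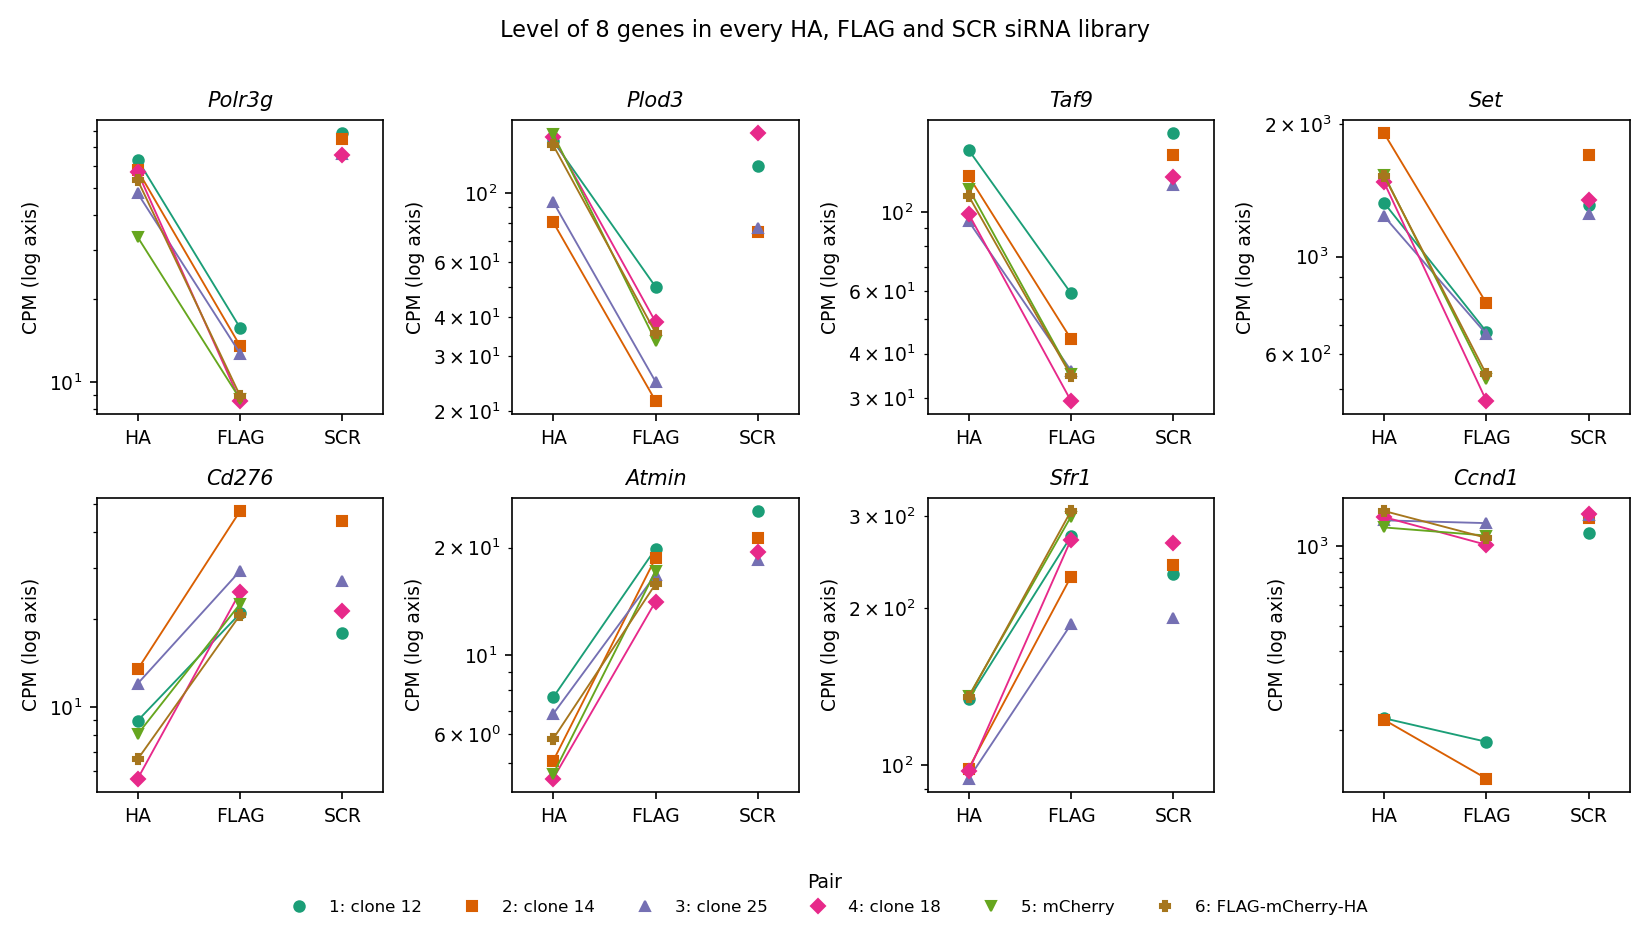
Level of 8 genes in CPM on a log axis, with each point 1 library and each line joining the HA and FLAG libraries of 1 pair; SCR libraries exist for 4 clones. Polr3g, Plod3, Taf9 and Set were low in the FLAG libraries, Cd276, Atmin and Sfr1 were low in the HA libraries, and Ccnd1 was low with both siRNAs in clones 12 and 14.

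The other 9 of the 12 smallest were mostly genes of low level. Of the 12, 8 had a mean under 3 CPM, and in 9 the groups overlapped. Ppfia3, a synaptic scaffold protein, had a median of 0.664 CPM with HA and 2.67 CPM with FLAG siRNA (log2 fold change -1.67 ± 0.21, SE), and Slc6a4, the serotonin transporter, 1.47 CPM with HA and 4.37 CPM with FLAG siRNA (-1.57 ± 0.18). Nov, a matricellular protein of the CCN family, reached 145 CPM with HA and 234 CPM with FLAG siRNA in its highest libraries, with medians of 12.2 CPM and 33.0 CPM. Prokr1, a prokineticin receptor, changed by -1.26 ± 0.19 and Gpr153, an orphan receptor, by -1.21 ± 0.16. The immune receptor gene 4632428N05Rik (Vsir in RefSeq) changed by -1.25 ± 0.21, the glycosyltransferase A4galt by -1.22 ± 0.20, the ubiquitin ligase Rnf182 by -1.24 ± 0.28 and the synaptic priming factor Unc13a by -1.19 ± 0.19. The largest standard error of the 12 was that of Rnf182.

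**Figure D2:**
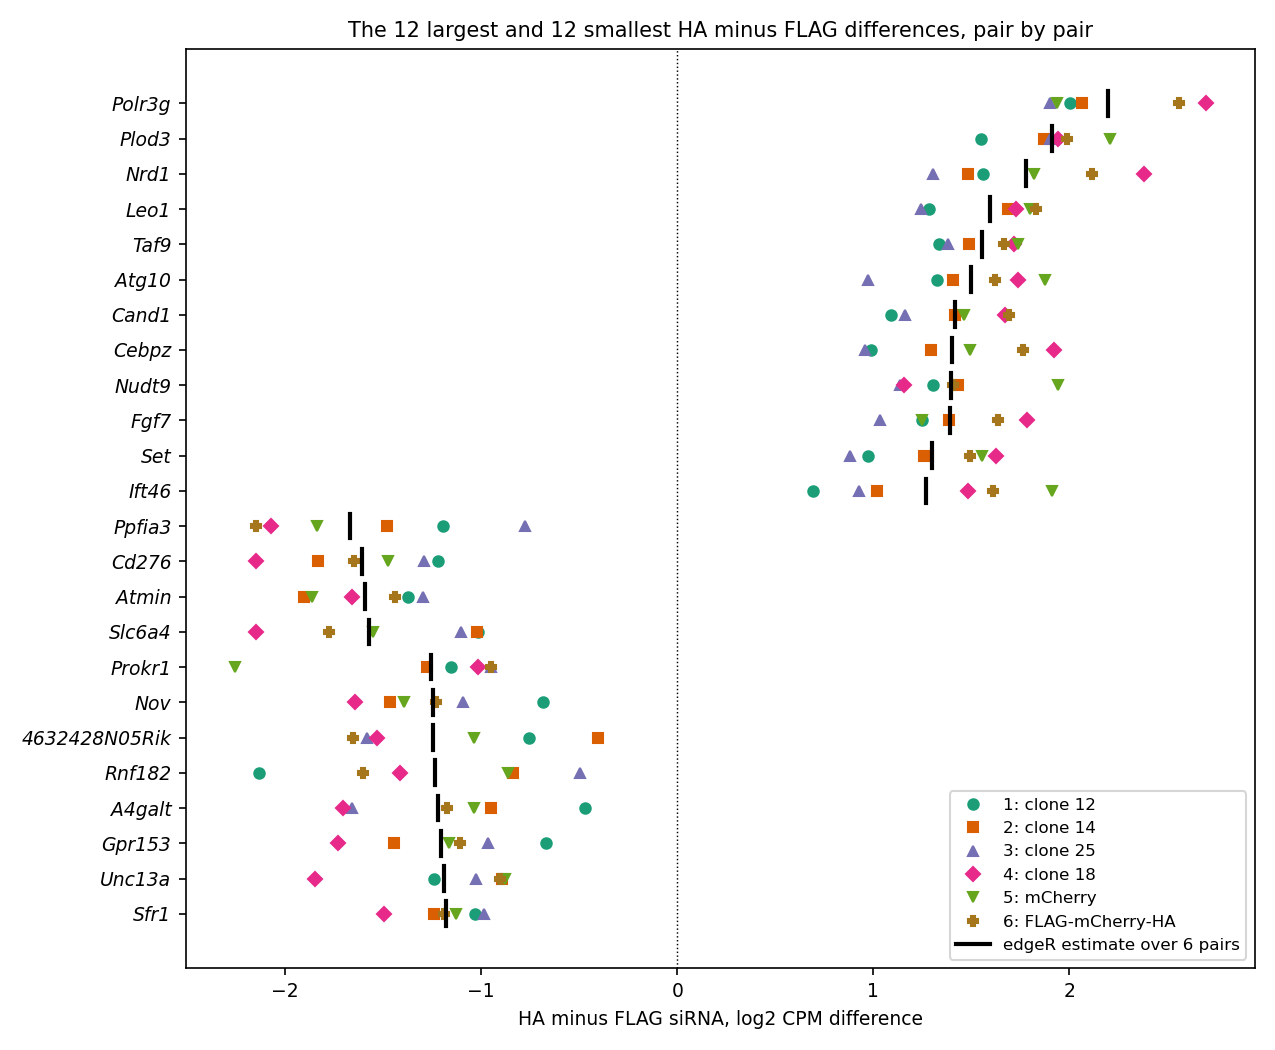
HA minus FLAG difference in log2 CPM for the 24 genes, with 1 marker per pair and a black bar for the edgeR estimate over 6 pairs. All markers of the upper 12 genes lie right of 0 and all markers of the lower 12 lie left of 0, which the choice of the genes requires.

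The SCR libraries of clones 12, 14, 25 and 18 placed each siRNA against a common control. With HA siRNA, 2398 of 13441 genes tested were called against SCR (17.8%), 1316 higher (9.79%) and 1082 lower (8.05%). With FLAG siRNA 1541 were called (11.5%), 796 higher (5.92%) and 745 lower (5.54%). Both comparisons share the SCR libraries with each other, and the HA and FLAG libraries of 4 pairs with the comparison above, so the values are set side by side only. Leaving out a clone moved these counts by over 1.5 times, except FLAG minus SCR higher without clone 18: HA minus SCR calls were 394 higher and 417 lower without clone 12, 444 and 340 without clone 14, 449 and 458 without clone 25, and 2634 and 2738 without clone 18. FLAG minus SCR calls were 303 higher and 333 lower without clone 12, 302 and 261 without clone 14, 368 and 379 without clone 25, and 1086 and 1260 without clone 18.

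All 12 genes that were low with FLAG siRNA were called lower with FLAG than with SCR siRNA, by log2 fold changes of -2.50 to -1.05. With HA siRNA the same 12 differed from SCR by -0.34 to 0.19, and none was called (adjusted p of 0.0537 or more, edgeR). Polr3g had the lowest FLAG minus SCR value (-2.50), followed by Taf9 (-1.74) and Plod3 (-1.67). Of the 12 genes that were lower with HA than with FLAG siRNA, 8 were called lower with HA than with SCR siRNA. None was called between FLAG and SCR siRNA (adjusted p of 0.0700 or more, edgeR). Atmin changed by -1.84, Cd276 by -1.44, Prokr1 by -1.32, Nov by -1.16 and Sfr1 by -1.14 between HA and SCR siRNA, against -0.28, 0.18, -0.21, 0.03 and 0.04 between FLAG and SCR siRNA. The 4 without a call in either comparison were 4632428N05Rik, Rnf182, A4galt and Unc13a, whose SCR libraries lay between HA and FLAG in the fit. In the same order they changed by -0.54, -0.51, -0.38 and -0.34 with HA, and by 0.55, 0.86, 0.91 and 0.95 with FLAG siRNA against SCR. For these genes the difference was therefore at least as much a higher estimate with FLAG as a lower one with HA siRNA.

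**Figure D3:**
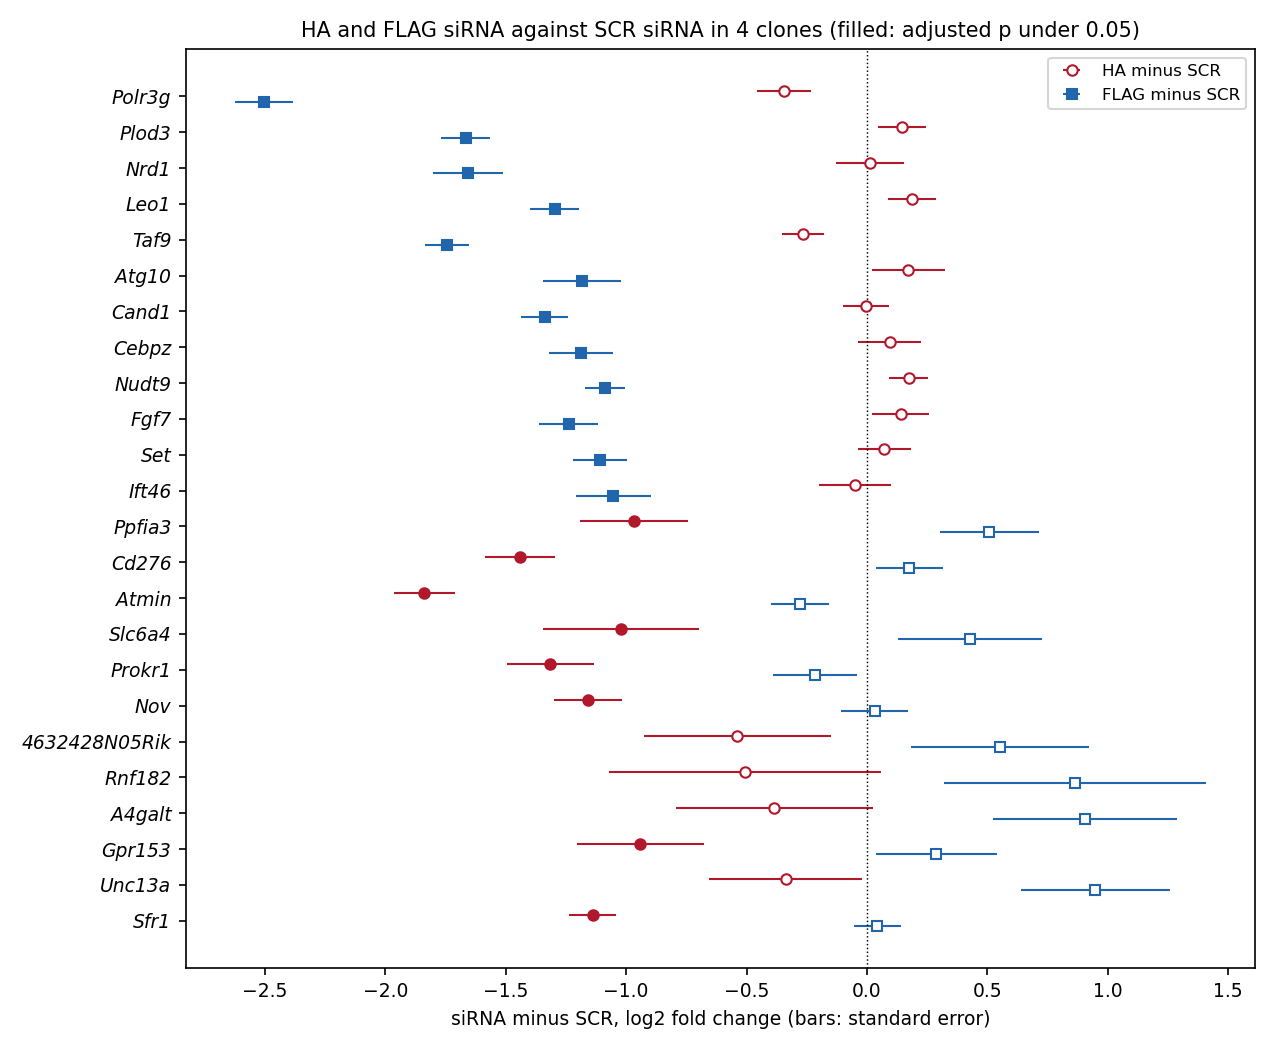
Log2 fold change of HA minus SCR (circles) and FLAG minus SCR (squares) in 4 clones, with standard errors and filled markers for adjusted p under 0.05. The squares of the upper 12 genes lie between -2.50 and -1.05 with circles near 0, while the circles of Atmin and Cd276 lie at -1.84 and -1.44 with squares near 0.

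Some genes moved with both siRNAs and still differed between them. Cdkn1a, the cyclin-dependent kinase inhibitor p21, had medians of 19.7 CPM with HA and 29.9 CPM with FLAG siRNA, against 57.3 to 82.9 CPM with SCR siRNA. It changed by -1.82 with HA and by -1.25 with FLAG siRNA against SCR, and by -0.47 ± 0.08 (SE; adjusted p = 0.00646, edgeR) between HA and FLAG. Slc37a4, which carries glucose-6-phosphate into the endoplasmic reticulum, had 1.60, 2.64 and 3.43 CPM with HA siRNA and 3.65, 4.64 and 6.17 CPM with FLAG siRNA as its lowest, median and highest levels, against 8.30 to 11.5 CPM with SCR siRNA. The 3 sets of libraries did not overlap, and the HA minus FLAG log2 fold change was -0.93 ± 0.11. Shmt2, the mitochondrial serine hydroxymethyltransferase, changed by -1.66 with HA and -0.98 with FLAG siRNA against SCR, and by -0.71 ± 0.07 between them. Taldo1, transaldolase of the pentose phosphate pathway, was higher than SCR by 1.67 with HA and 1.35 with FLAG siRNA, and by 0.31 ± 0.07 with HA than with FLAG. Ctsa, the lysosomal protective protein cathepsin A, was called lower than SCR with HA siRNA (-1.21) and not called with FLAG siRNA (-0.19). It had 48.8, 62.7 and 103 CPM with HA siRNA, 110, 125 and 198 CPM with FLAG siRNA and 136 to 206 CPM with SCR siRNA. Cdkn1a, Slc37a4 and Taldo1 are in a list of 11 genes chosen earlier on these samples for moving with both tag siRNAs, which is not independent evidence of their direction.

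Some of the genes low with FLAG siRNA had a run of aspartate codons in their coding sequences, and others lacked one. Coding sequences of GENCODE M21 (GRCm38, the assembly of mm10) were read in frame for 11330 genes averaging 1 CPM or more, and the longest run of consecutive aspartate codons was counted in each. A run of 4 or more codons was held by 246 of the 11330 genes (2.17%), by 7 of the 12 genes lowest with FLAG relative to HA siRNA, by 20 of the 50 and by 28 of the 100 highest called HA minus FLAG differences. None of the 100 lowest held one, a share of 0 of 100. The feature and the run length were chosen after the values were seen, so these shares are descriptions with no test. A run of 4 or more codons of glutamate, the other acidic residue, was held by 10.6% of all 11330 genes. It was held by 3 of the 12, 11 of the 50 and 16 of the 100 highest differences, against 1 of the 12, 4 of the 50 and 14 of the 100 lowest. Among the 100 lowest FLAG minus SCR differences, 26 held an aspartate run and 22 a glutamate run. The windows below show the run in each of 5 of the 7 genes of the first 12, read 5′ to 3′ on the coding strand within 1 exon, with the aspartate codons in capitals and 6 bases on each side. In Cand1 the run of 4 codons spans an exon junction.
Nrd1, exon of the coding sequence, chr4:109013625-109013672 (+): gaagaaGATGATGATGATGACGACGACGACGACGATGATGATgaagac
Leo1, exon of the coding sequence, chr9:75445513-75445536 (+): cacaacGATGACGACGATgagggc
Taf9, exon of the coding sequence, chr13:100655786-100655836 (+): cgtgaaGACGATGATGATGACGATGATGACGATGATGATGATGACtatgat
Set, exon of the coding sequence, chr2:30070471-30070500 (+): gcagaaGATGATGATGACGACGACgaagag
Ift46, exon of the coding sequence, chr9:44782145-44782177 (+): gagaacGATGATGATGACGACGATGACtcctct

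The difference between the siRNAs was larger for longer runs. Genes whose longest run was 1, 2 or 3 codons had median HA minus FLAG log2 fold changes of 0.02, -0.02 and -0.01, and 4.55%, 5.03% and 7.57% of them were called higher with HA siRNA. At 4 codons the median was 0.05 and 18.3% of 153 genes were called higher. At 5 codons it was 0.12 and 20.0% of 45 genes, and at 6 or more it was 0.27 and 43.8% of 48 genes. Against SCR siRNA, the 48 genes with 6 or more codons had a median of -0.14 with HA and -0.33 with FLAG siRNA, while all 11330 genes had medians of 0.01 with HA and 0.02 with FLAG siRNA. Genes with a glutamate run of 4 or more but no such aspartate run were called higher in 5.29% of 1115 cases, close to the 5.48% of all genes with a coding sequence.

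Among the 48, 21 were called higher with HA siRNA and 2 lower, and the values of those named here were picked after they were seen. Daxx, a histone chaperone with a run of 12, changed by 1.16 ± 0.09 between HA and FLAG, and by 0.10 with HA and -0.98 with FLAG siRNA against SCR. Npm1, the abundant nucleolar protein nucleophosmin with a run of 6, changed by 0.96 ± 0.10, and Tfdp1, the dimerization partner of E2F factors with a run of 7, by 0.76 ± 0.09. Ezh2, the histone methyltransferase of the Polycomb complex, changed by 0.38 ± 0.07. The 2 called lower with HA siRNA were Fgfr1 (-0.39) and Mmp13 (-0.70), so a long run did not go with a higher level in every gene. The 48 genes had median HA minus FLAG differences of 0.22, 0.28, 0.13, 0.61, 0.26 and 0.39 in pairs 1 to 6, positive in each. Over all 246 genes with 4 or more codons the medians were 0.02, 0.02, -0.01, 0.35, 0.05 and 0.21. For the 153 genes with exactly 4 codons they were negative in pairs 1, 2, 3 and 5 (-0.06 to -0.01), and 0.27 and 0.14 in pairs 4 and 6. Genes with aspartate runs also had longer coding sequences, with a median of 2229 bases for runs of 4 or more against 1404 bases for shorter runs. In pairs 4 and 6, genes with a glutamate run and no aspartate run had medians of 0.09 and 0.04, and in the other 4 pairs of -0.10 to -0.05. The part of coding length in the values of the aspartate genes was not tested.

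The 3′UTRs were examined for heptamers, the part of a transcript where short pairing of siRNAs is best known. The longest annotated 3′UTR was available for 11321 of 11737 genes averaging 1 CPM or more, and all 16384 heptamers were ranked by the share of genes holding one among the 100 lowest or highest called genes, relative to all genes, if at least 10 of the 100 held it. For the genes lowest in HA minus FLAG, the heptamer CCCGACT (heptamer A) led. It was held by 32 of the 100 genes and by 2.84% of all 11321 genes, and the same heptamer led among the 100 genes lowest in HA minus SCR, where 44 held it. For FLAG minus SCR, ACGATGA (heptamer B) led, with 18 of the 100 lowest genes and 2.00% of all. Second there was ACCCGAC, which overlaps heptamer A, with 12 of the 100 and 1.85% of all. Letters of heptamer A were therefore not particular to genes low with HA siRNA. Heptamer B also stood second for the highest HA minus FLAG differences, with 13 of 100, behind the overlapping CGATGAA with 12 of 100 and 1.70% of all. Matches were counted on the transcript strand only. A match is a description of the letters, not a site.

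The windows of 23 bases in the 12 smallest and 12 largest genes, with the heptamer in capitals, were as follows on the transcript strand of GRCm38; 4 of the 12 smallest held heptamer A and 4 of the 12 largest held heptamer B.
Atmin, 3′UTR, heptamer A, chr8:116959409-116959431 (+): ggggcctgCCCGACTgcttccca
Ppfia3, 3′UTR, heptamer A, chr7:45339326-45339348 (-): gcccccacCCCGACTcggcctct
Slc6a4, 3′UTR, heptamer A, chr11:77031702-77031724 (+): tcccagccCCCGACTcctcatct
Unc13a, 3′UTR, heptamer A, chr8:71627954-71627976 (-): agttccccCCCGACTtgacagat
Polr3g, 3′UTR, heptamer B, chr13:81675648-81675670 (-): caaactggACGATGAtttctctt
Atg10, 3′UTR, heptamer B, chr13:90935909-90935931 (-): tttagtgaACGATGAatgaaaat
Nudt9, 3′UTR, heptamer B, chr5:104065220-104065242 (+): gcctggatACGATGAagaaccct
Fgf7, 3′UTR, heptamer B, chr2:126090035-126090057 (+): aactacagACGATGAgcagtgtt
The 4 genes of the first 12 with heptamer B in the 3′UTR, Polr3g, Atg10, Nudt9 and Fgf7, were genes with no aspartate run of 3 or more codons. Fgf7 also held heptamer A, and 4632428N05Rik, which was lower with HA than with FLAG siRNA, held heptamer B. The matches therefore did not sort the 24 genes without exception.

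The holders of heptamer A, 322 genes, were called lower with HA than with FLAG siRNA in 98 cases (30.4%) and higher in 12 (3.73%), while genes without it were called lower in 6.65% of cases. Their median HA minus FLAG log2 fold change was -0.21, and it was -0.30 between HA and SCR and -0.11 between FLAG and SCR siRNA. The medians of the 6 pairs were -0.23, -0.28, -0.27, -0.12, -0.30 and -0.10. Heptamer A was chosen on these pairs, so its shares and medians partly follow from the choice. The holders of heptamer B, 226 genes, were called higher with HA than with FLAG siRNA in 51 cases (22.6%) and lower in 8 (3.54%), while genes without it were called higher in 5.14% and lower in 7.40% of cases. Their median was 0.11, with pair medians of 0.03 to 0.28. Against SCR siRNA, heptamer B genes had a median of -0.09 with HA and -0.16 with FLAG siRNA. Holders had longer 3′UTRs than other genes, with medians of 2354.5 bases for heptamer A and 2800.5 bases for heptamer B, against 1210 bases for genes without the heptamer in each case. The part of 3′UTR length in these values was not tested.

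When the heptamer was chosen on odd-numbered chromosomes alone, heptamer A again led. On the even-numbered chromosomes, 45 of its 146 holders were called lower with HA siRNA (30.8%), against 7.17% of the genes without it. For the highest differences, CGATGAA was chosen, and 15 of its 86 holders on even-numbered chromosomes were called higher (17.4%), against 5.24% of the genes without it, with medians of 0.01 for holders and -0.01 for the others. The genes on the 2 sets of chromosomes came from the same libraries and are not replicates. Heptamer B letters also lie inside mixed GAC and GAT codon runs: 163 of the 246 genes with an aspartate run of 4 or more held it in the coding sequence (66.3%), against 10.6% of all genes with a coding sequence. Outside such runs, 128 of 1040 genes holding it in the coding sequence were called higher with HA siRNA (12.3%), against 5.08% of all genes with a run under 4, and their median log2 fold change was 0.01. Heptamer A was held in the coding sequence by 688 genes, of which 122 were called lower with HA siRNA and 20 higher (2.91%), with a median of -0.14. Of all 11330 genes with a coding sequence, 827 were called lower (7.30%) and 621 higher (5.48%).

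**Figure D4:**
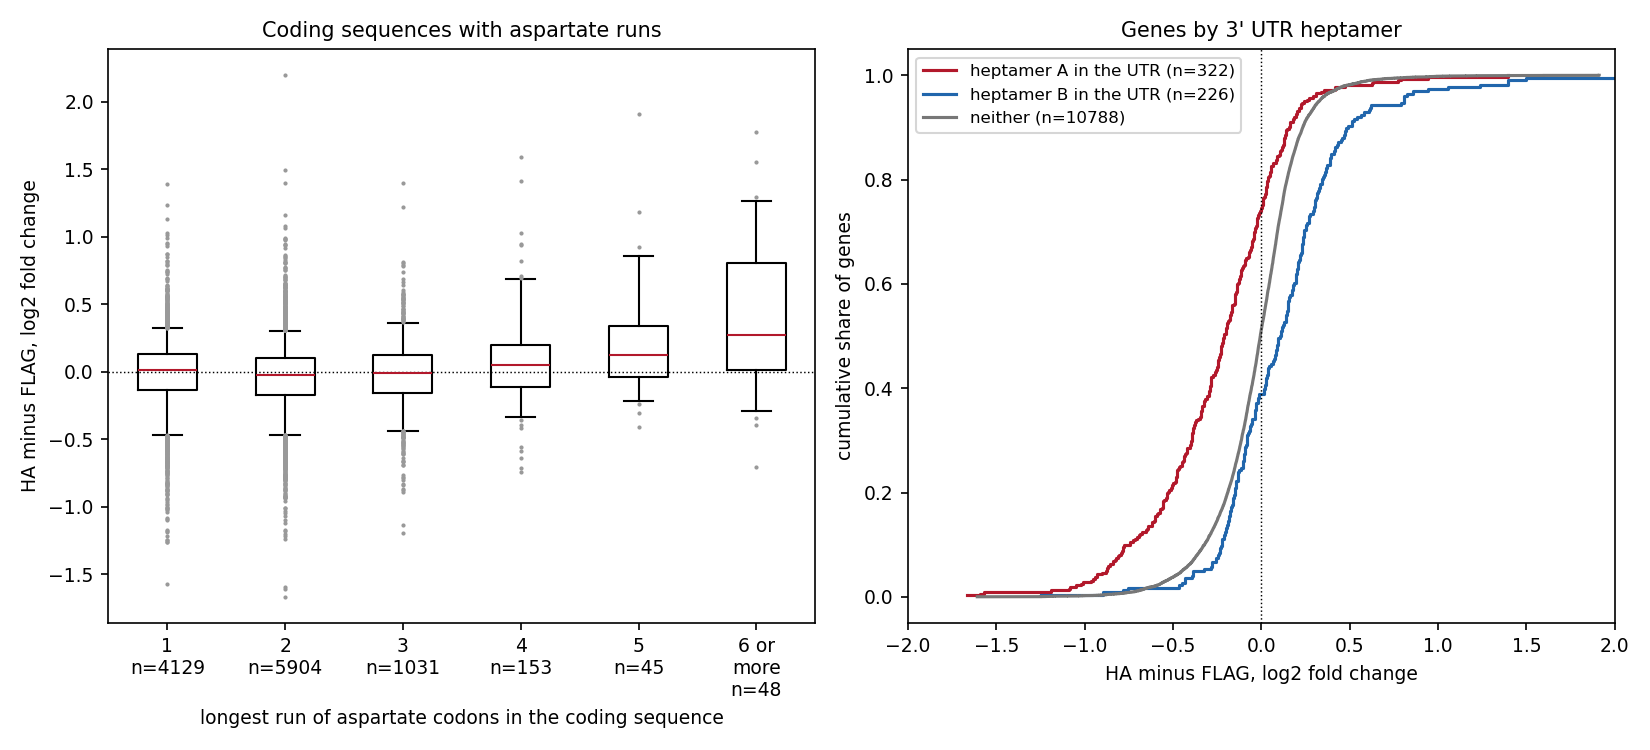
Left, HA minus FLAG log2 fold change by the longest run of aspartate codons, with boxes for quartiles, red medians and whiskers at percentiles 5 and 95; medians are 0.05, 0.12 and 0.27 at 4, 5 and 6 or more codons. Right, cumulative share of genes by HA minus FLAG log2 fold change on an axis that ends at 2 (Polr3g lies beyond it), with 322 holders of heptamer A left of, and 226 holders of heptamer B right of, the genes with neither.

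Another heptamer, TCGGAGA (heptamer C), led among genes higher with HA than SCR siRNA (21 of 100) and higher with FLAG than SCR siRNA (22 of 100), with 2.14% of all genes holding it. The overlapping CGGAGAA was held by 25 and 24 of the same 2 sets and by 2.60% of all genes. It led in its place for HA minus SCR in the 200 highest genes and, for both comparisons, on odd-numbered chromosomes. The 242 holders of heptamer C had medians of 0.13 for HA minus SCR and 0.17 for FLAG minus SCR, and of -0.05 for HA minus FLAG. Between HA and FLAG, 13 holders were called higher (5.37%) and 24 lower (9.92%), against 5.49% and 7.27% of genes without it. Among the HA, FLAG and SCR libraries of each clone, heptamer C holders were lowest in the SCR library, by -0.07 in clone 12, -0.09 in clone 14, -0.10 in clone 25 and -0.13 in clone 18 relative to other genes. Among the same 3 libraries, heptamer A holders were lowest with HA siRNA in all 4 clones, by -0.20, -0.25, -0.20 and -0.09 in the same order. Heptamers A and C were chosen on these libraries, so these positions are largely set by the choice. Genes with 6 or more aspartate codons were lowest with FLAG siRNA in all 4 clones, by -0.17, -0.16, -0.11 and -0.39. For 4 or more codons the FLAG values were -0.07, -0.05, -0.03 and -0.24, and in clone 25 the HA library was slightly lower (-0.04). Clones 12 and 14 also have libraries with other siRNAs of the series, labelled Nature, Qiagen and Life. In clone 12 the Nature library stood at -0.12 for 4 or more codons, below FLAG, and at -0.08 for heptamer C holders, near SCR. In clone 14 it stood at 0.10 and 0.04. The Qiagen and Life libraries were positive for both features in both clones. The untreated libraries of clones 12 and 14 stood above the SCR libraries for each feature. They were at 0.22 and 0.34 for 4 or more codons, against 0.14 and 0.12 with SCR siRNA. For heptamer A holders they were at 0.23 and 0.35, against 0.17 and 0.17, and for heptamer C holders at 0.17 and 0.22, against -0.07 and -0.09. The part of transfection in these values was not tested.

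**Figure D5:**
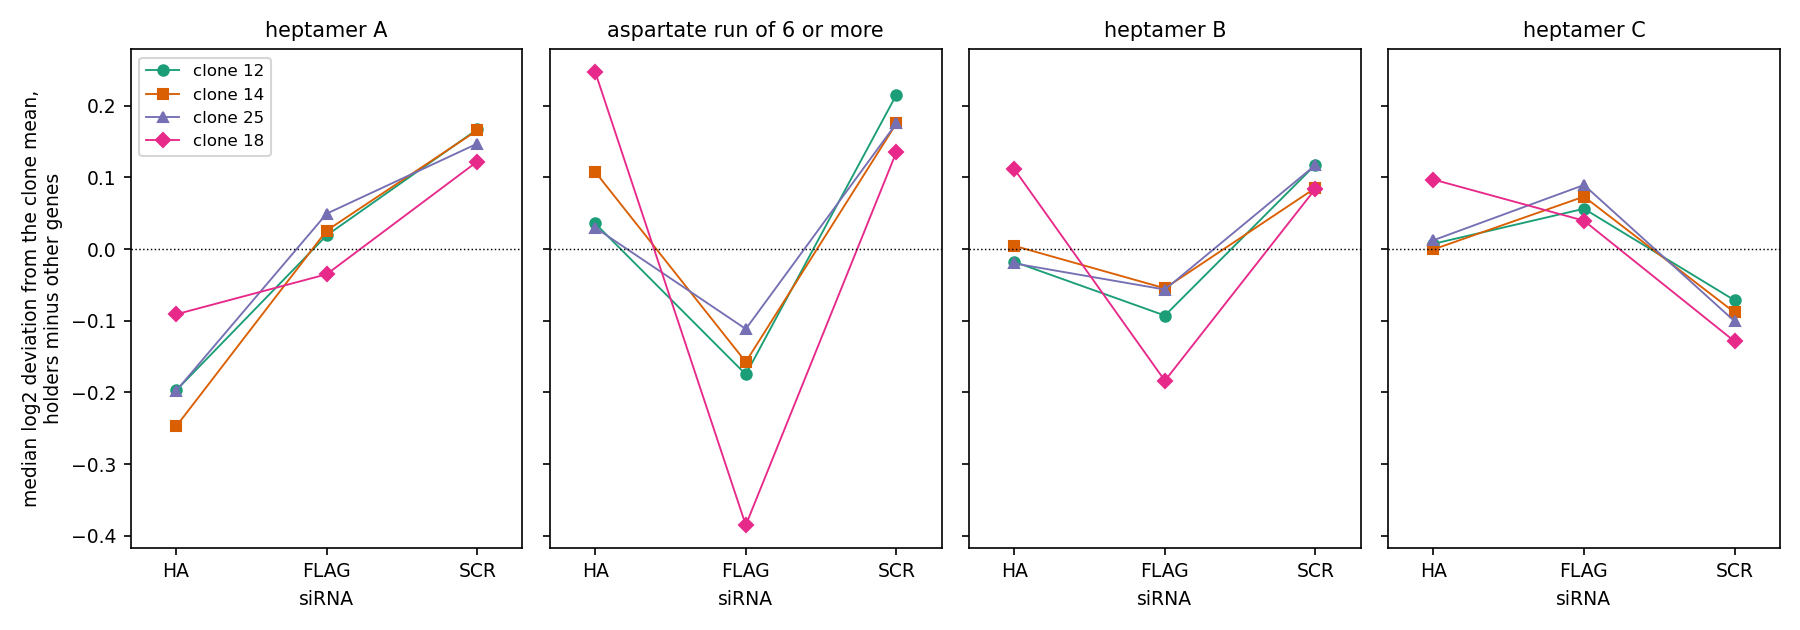
Median log2 deviation from the mean of the clone's HA, FLAG and SCR libraries, for genes holding a feature minus all other genes, with 1 point per library and lines joining the libraries of a clone. Heptamer A holders were lowest with HA siRNA (-0.25 to -0.09), genes with 6 or more aspartate codons and heptamer B holders with FLAG siRNA, and heptamer C holders with SCR siRNA. The features were chosen on these same libraries, which largely sets this order.

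The next question was whether the difference between the siRNAs depended on tagged cyclin D1. In the 2 tagged pairs 10 genes were called (0.0766% of those tested), 8 higher (0.0613%) and 2 lower (0.0153%). In the 4 other pairs 615 were called (4.71%), 284 higher (2.18%) and 331 lower (2.54%). All 10 were among the 615 with the same sign, which is 100% of the first list and 1.63% of the second. The 12 largest genes had log2 fold changes of 0.86 to 2.04 in the tagged and 1.39 to 2.28 in the other pairs, and the 12 smallest were negative in both classes. Sfr1 changed by -1.14 in the tagged and -1.20 in the other pairs, Plod3 by 1.71 and 2.01, and Cd276 by -1.54 and -1.64. In edgeR's test of tagged minus other pairs, 0 genes were called (0.00%), 157 had an unadjusted p under 0.05, and DESeq2 also called 0. On simulated data that test found 2 of 100 changed genes when the log2 difference was 0.5 and 25 of 100 when it was 1. The simulated spread was estimated with no HA term for the 4 other pairs, unlike in the test itself. The shares found therefore need not be those of the test, and moderate differences between the classes may have been missed. For Ccnd1 the log2 fold change was 0.51 ± 0.14 in the tagged and 0.20 ± 0.10 in the other pairs, and their difference of 0.31 ± 0.18 was not called (unadjusted p = 0.117, edgeR). In the 3 pairs with no tag on any transcript, 10 of the 12 largest and 4 of the 12 smallest genes were still called. All 24 kept their sign there and in both classes, which the choice of genes moving one way in every pair requires. The kept signs therefore cannot show whether the difference depended on tagged cyclin D1. The calls in the 3 pairs also rest on libraries used to choose the genes.

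The HA libraries of the mCherry lines marked REP1 were not used to choose any gene. Set against the FLAG REP2 library of the same line, all 24 values of the 12 largest genes were above 0 (0.90 to 2.73 on the log2 scale) and all 24 values of the 12 smallest were below 0 (-2.80 to -0.40). Polr3g was 2.54 and 2.73 higher in the mCherry and FLAG-mCherry-HA lines, and Cd276 was at -2.01 and -1.88. The FLAG libraries in these differences are those of pairs 5 and 6, so only the HA side is new. The 48 genes with 6 or more aspartate codons had medians of 0.52 and 0.65 there, and heptamer A holders of -0.14 and -0.06. Genes without such runs shifted too. Medians were -0.07 and -0.14 for a longest run of 1 codon, and 0.14 and 0.21 for a run of 3. Genes with a glutamate run and no aspartate run had 0.09 and 0.13. Coding sequences were shorter for runs of 1 (median 972 bases) than for runs of 3 (2292 bases). The part of coding length and of REP1 against REP2 in these medians was not tested.

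Gene lists were then read against the shares of all genes, 4.84% higher and 6.59% lower. Of 27 lists, 23 held at least 1 called gene. Among TGF-beta targets, 6 of 25 were called higher with HA siRNA and 2 lower, with a list median of 0.05 against -0.01 for all genes. The higher members were Ctgf and Cyr61, matricellular CCN proteins, Pmepa1, an inhibitor of TGF-beta signalling, the ligand Tgfb2 and the transcription regulators Id2 and Id3. Ctgf changed by 1.02 ± 0.10 between HA and FLAG, and by 1.01 with HA and 0.12 with FLAG siRNA against SCR, although its level varied widely between clones (2.31 to 607 CPM with HA and 0.648 to 370 CPM with FLAG siRNA). Pmepa1 changed by 0.78 ± 0.10, and by 0.76 with HA and -0.01 with FLAG siRNA against SCR. Id2 changed by 0.72 ± 0.12, with 0.16 for HA and -0.48 for FLAG siRNA against SCR. Ski, a repressor of SMAD proteins, changed by -0.51 ± 0.06 and Tgfbi, a matrix protein, by -0.46 ± 0.07.

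Among extracellular matrix and contractile genes, 7 of 30 were called lower and 1 higher, with a median of -0.09. The lower ones were the collagens Col3a1 (-0.63 ± 0.08), Col4a2, Col5a1 (-0.57 ± 0.07), Col6a1 (-0.43 ± 0.07) and Col6a2, the crosslinking enzyme Loxl1 and the collagenase Mmp13. Col3a1 had 157, 280 and 381 CPM with HA siRNA and 240, 484 and 517 CPM with FLAG siRNA as its lowest, median and highest levels, so the groups overlapped while HA was below FLAG in 6 of 6 pairs. Against SCR siRNA, Col3a1 changed by -0.25 with HA and 0.28 with FLAG siRNA, both called. Thbs1, thrombospondin 1, was the member called higher (0.52 ± 0.13), and it holds an aspartate run of 5 codons. Of 12 fibroblast markers, 2 were called lower, Col3a1 and the PDGF receptor Pdgfrb (-0.88 ± 0.12), and the summed level of the list ran from 9035 to 14243 CPM with HA and from 8191 to 13582 CPM with FLAG siRNA.

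Of 23 D cyclins and G1 regulators, 2 were called higher and 3 lower. Ccne1 and Ccne2, the E cyclins, changed by 0.40 ± 0.08 and 0.45 ± 0.09. The inhibitors Cdkn1a and Cdkn1c and the pocket protein Rb1 were lower with HA siRNA, Rb1 by -0.44 ± 0.09. Of 30 DNA replication and E2F target genes, Cdc6 (0.43 ± 0.08), a licensing factor, and Fen1 (0.29 ± 0.07), a flap endonuclease, were called higher, and the median was 0.12. Of 25 mitosis genes, Cdc20 (0.47 ± 0.07), Birc5 (0.60 ± 0.09) and Mki67 (0.31 ± 0.09) were called higher, and none lower. Among 11 anti-apoptotic genes, Bcl2 (0.81 ± 0.09), Aven (0.70 ± 0.11) and Birc5 were called higher and Bcl2l2 (-0.58 ± 0.12) lower. Bcl2 changed by -0.23 with HA and -0.999 with FLAG siRNA against SCR. Of 23 pro-apoptotic genes and caspases, Casp6 (-0.50 ± 0.07) was the only call. Of 20 p53 targets, 2 were called higher, Plk2 (0.70 ± 0.07) and Ei24 (0.46 ± 0.06), and 4 lower, Cdkn1a, Mdm2, Sesn1 and Eda2r.

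Of 28 genes of MAPK output and immediate early response, 3 were called higher and 4 lower. Egr3 (-0.74 ± 0.07) and Fosb (-0.73 ± 0.10), immediate early transcription factors, were lower with HA siRNA, and Hbegf (0.54 ± 0.06), a ligand of the EGF receptor, was higher. Egr3 changed by 0.03 with HA and 0.75 with FLAG siRNA against SCR. Of 25 genes of the integrated stress and unfolded protein response, 3 were called in each direction, among them Shmt2 lower and the chaperone Calr (0.31 ± 0.07) higher. Among lysosome and autophagy genes, Ctsa (-1.05 ± 0.08) was called lower and Atg5 (0.24 ± 0.06), which acts in autophagosome formation, higher.

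Of 17 tested genes of the small RNA pathway, Ago1 (-0.42 ± 0.10), an Argonaute, was the only call, with medians of 33.6 CPM with HA and 51.1 CPM with FLAG siRNA. Of 28 interferon and RNA sensing genes, Mx1 (-1.01 ± 0.26), an antiviral GTPase, and Irf1 (-0.30 ± 0.07), an interferon regulatory factor, were called lower and none higher. In this list 25 genes had negative and 3 positive log2 fold changes (median -0.16), against 6766 negative of 13050 genes tested. Mx1 stood at 0.149 to 0.754 CPM with HA and 0.334 to 1.73 CPM with FLAG siRNA, near 0 in both. In the remaining lists, calls were 2 higher and 2 lower of 26 for cholesterol synthesis, 0 and 2 of 19 for heat shock proteins, 0 and 2 of 18 for NF-kB targets, and 0 and 2 of 24 for glycolysis and hypoxia. They were 1 and 0 of 25 for cytosolic ribosomal proteins, 0 and 1 of 25 for the respiratory chain, and 0 of 8 for replication-dependent histone genes. All 25 ribosomal protein genes and 20 of the 25 respiratory chain genes had positive log2 fold changes (medians 0.12 and 0.10). Of all 13050 genes tested, 6284 were positive. These leanings were not tested.

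Markers of other cell types were few. Of 10 markers each, 3 macrophage, 3 endothelial, 5 epithelial, 6 neural and 2 myogenic genes passed the filter on low counts. Called among them were Ocln (-0.66 ± 0.17), an epithelial junction protein, and Tubb3 (-0.87 ± 0.11), a neuronal tubulin, both lower with HA siRNA. Ocln was higher with HA siRNA in pair 3 (0.82) and close to 0 in pair 1 (-0.06). The summed epithelial markers ran from 284 to 3449 CPM with HA and from 240 to 2785 CPM with FLAG siRNA, and the summed macrophage markers from 23.0 to 118 CPM with HA and from 23.3 to 103 CPM with FLAG siRNA. In the 12 libraries 2 macrophage, 1 endothelial, 1 neural and 5 myogenic markers were at 0 throughout. The part of other cell types in the results was not tested.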

How the data were processed

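RNA of the transformed fibroblasts was sequenced as single 100 base reads from stranded poly(A) libraries, per the labels' protocols. Per the submitters' processing notes the tools named were TopHat2 2.0.13, HTSeq 0.6.1p1, Bowtie2 2.2.3, FastQC and CASAVA 1.8.2, with build mm10. No source used here gives the strand setting or annotation, so genes that overlap, lie antisense or have near-identical copies may share counts. As deposited, the table holds the authors' raw counts per gene for 28 libraries over 24079 rows; 22 rows without a gene ID held at most 0.0137% of a library.

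Counts were fitted with edgeR 4.0.16 in R 4.3.3: filterByExpr by siRNA, TMM, a robust quasi-likelihood fit of the 12 paired libraries with the pair as a block (5 residual degrees of freedom), and Benjamini-Hochberg adjustment. The pairing comes from the clone or line in the labels; libraries of a pair deviated together (correlations 0.654 to 0.962). A second fit gave separate effects for tagged and other pairs (4 residual degrees of freedom), and a further fit used the HA, FLAG and SCR libraries of 4 clones with the clone as a block (6). Standard errors were derived as the log2 fold change over the root of F. CPM used TMM factors over 28 libraries; log2 CPM used a prior count of 2. No 2 of the 12 libraries were within sampling noise (66 pairs, lowest chi-square per degree of freedom 14.6). On simulated data the paired fit recovered 49 and 98 of 100 genes at log2 changes of 0.5 and 1, with 10 false among 157 calls. The HA minus SCR fit recovered 57 and 79 of 100, and FLAG minus SCR 55 and 80.

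By rule the text names Ccnd1, the 12 highest and 12 lowest log2 fold changes of called genes that average 1 CPM or more and move one way in all pairs, and, per list, at most 3 members ranked by p; further list members and the aspartate genes were named after their values were seen. The members, lists and tests were chosen with earlier results of these data known. Coordinates, coding sequences and 3′UTRs came from GENCODE M21 and the GRCm38.p6 annotation, in which 23977 rows matched. Heptamer and codon counts (Python 3.11.15) were added after seeing the data and carry no test. DESeq2 1.42.0 and other settings were tried as alternatives. A list member and a sequence window are not reported here.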

Additional observations from a re-analysis of the deposited data

Results flagged for a closer look

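In Ccnd1 and the 24 genes with the largest and smallest differences, the 6 pair differences were searched for a pair that stood apart from the rest, a rule that chance meets in about 1 of 20 groups. It was met in 3 of the 25 genes. Nudt9 had an HA minus FLAG log2 difference of 1.94 in the mCherry pair, against 1.13 to 1.43 in the other 5. Prokr1 was at -2.26 in the mCherry pair, against -1.28 to -0.95 in the others, on levels of a few CPM. Unc13a was at -1.85 in clone 18, against -1.24 to -0.88 in the others, also at low counts. All 3 genes kept their direction in every pair, which the choice of the genes requires. The HA library of the mCherry pair has 2.75% of its counts in Rn45s, and its part in the values of Nudt9 and Prokr1 was not tested.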

How the results depend on the processing

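No result changed direction under any alternative run. Size factors by relative log expression, no filter, a filter at 1 CPM, a non-robust fit, leaving out the Rn45s row and a fit of all 28 libraries kept both HA minus FLAG counts within 1.5 times; DESeq2 gave 1322 genes lower. Without the replicate block, 72 and 31 genes were called higher and lower, 2 distinct list genes against 71, 42 and 49 for HA minus SCR, and 27 and 24 for FLAG minus SCR. With fewer pairs the calls fell to 138 and 158 (19 list genes) in the 4 pairs without tagged cyclin D1, 10 and 7 (1) in the 3 pairs with no tag, 164 and 155 (24) in 4 pairs of different clones, and 198 and 217 (24) without the pairs over 2% Rn45s. Leaving out each pair in turn gave 277 to 1309 genes higher, 396 to 1521 lower and 34 to 119 list genes; 667 to 1463 of those calls were among the 1492 with the same sign. Leaving out each clone gave 394 to 2634 higher and 340 to 2738 lower for HA minus SCR, and 302 to 1086 and 261 to 1260 for FLAG minus SCR. In the fit of all 28 libraries these were 657 and 578, and 418 and 464. DESeq2 called 107 list genes and 1118 genes lower for FLAG minus SCR. Ccnd1 passed the threshold with no filter (0.32, adjusted p = 0.0437), with DESeq2 (0.29, 0.0194) and without pair 4 (0.30, 0.0400); over all alternatives its adjusted p ran from 0.0194 to 1.00. Leaving out each pair gave 0.22 to 0.34. The test of tagged minus other pairs gave 0 calls in all alternatives run. In sets of 50 and 200 genes, in the shortest 3′UTRs and on odd-numbered chromosomes, heptamer A led for both HA comparisons with lower genes, heptamer B for FLAG minus SCR lower and CGATGAA for HA minus FLAG higher. The cause of these changes was not tested, apart from the smaller number of pairs in the reduced sets.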
